A study of Homo sapiens with 12 samples.

Results

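The transcripts of 10 Krüppel-like factor genes, KLF2, KLF3, KLF4, KLF5, KLF6, KLF9, KLF10, KLF11, KLF13 and KLF15, were followed after toosendanin and in a control in HepG2, an established human cell line that was derived from a hepatic tumour. Genes were taken by their exact symbol, which gave 10 of the 28265 genes of the expression table and 35 of the 46178 regions of the table of N6-methyladenosine (m6A), a methyl mark on adenosines of mRNA. The series holds 12 libraries: 3 of RNA enriched with an m6A antibody (IP) and 3 of unenriched RNA (input) from cells treated with toosendanin, a triterpenoid of Melia toosendan known for liver toxicity, and the same numbers from cells labelled control. The labels give no dose, no time and no vehicle, and all libraries come from 1 cell line. The files hold a finished comparison for expression and, for m6A, read counts added up per condition, so values per library were not analysed here.

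Krüppel-like factors are DNA-binding proteins that share a set of zinc fingers at the C-terminus and recognise GC-rich and CACCC elements of promoters. KLF2, KLF4, KLF5 and KLF6 are best known as activators, KLF3 as a repressor that recruits CtBP, and KLF9, KLF10, KLF11 and KLF13 as factors that recruit the Sin3 histone deacetylase complex. Several are induced quickly by stress, growth factors or hormones, and in liver they are known for roles in injury, glucose output and amino acid breakdown.

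Because the members are known to bind GC-rich promoter elements and are often found to act on each other's genes, the sequences before the start of 3 of the genes that rose are shown here. KLF6, KLF13 and KLF4 were chosen because they had the smallest adjusted p-values among members whose window lies outside the annotated gene. Each line gives the 250 bases before the start, 5′ to 3′ on the strand of the gene, from RefSeq on GRCh38.p14. Capitals mark the element CACCC, the GC box GGGCGG, the cyclic AMP response element TGACGTCA or the TATA box TATAAA on either strand, and overlapping matches run together.
KLF6, chr10:3785210-3785459, minus strand: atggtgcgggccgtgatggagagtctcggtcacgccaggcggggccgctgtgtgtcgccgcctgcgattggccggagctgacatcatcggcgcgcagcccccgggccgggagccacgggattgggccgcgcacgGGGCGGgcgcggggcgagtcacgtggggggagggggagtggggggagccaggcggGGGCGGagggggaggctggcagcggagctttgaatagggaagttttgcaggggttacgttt
KLF4, chr9:107489770-107490019, minus strand: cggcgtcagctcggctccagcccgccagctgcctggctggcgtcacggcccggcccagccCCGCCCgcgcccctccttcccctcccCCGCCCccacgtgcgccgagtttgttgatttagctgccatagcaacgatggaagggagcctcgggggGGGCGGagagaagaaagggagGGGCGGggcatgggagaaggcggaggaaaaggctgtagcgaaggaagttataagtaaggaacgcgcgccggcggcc
KLF13, chr15:31326585-31326834, plus strand: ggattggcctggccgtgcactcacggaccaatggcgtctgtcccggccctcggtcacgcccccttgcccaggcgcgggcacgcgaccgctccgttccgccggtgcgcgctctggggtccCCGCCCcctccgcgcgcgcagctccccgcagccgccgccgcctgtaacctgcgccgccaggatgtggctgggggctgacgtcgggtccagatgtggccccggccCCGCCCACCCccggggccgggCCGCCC

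Read on either strand, the GC box GGGCGG occurred 2 times before KLF6, 4 times before KLF4 and 3 times before KLF13. Over 10 windows of the 8 members matched in the RefSeq promoter table, 7 genes had it in at least 1 window, and 42.6% of all 35116 windows of 250 bases held it. The first is a count per gene and the second a share per window, and KLF5 and KLF11 each had 2 windows. KLF2 had 4 GC boxes, KLF15 had 6 and the windows of KLF11 had 2 and 6, whereas KLF9 had 0. Both windows of KLF11 and the more GC-rich window of KLF5 overlap the annotated gene itself. CACCC, on either strand present in 54.7% of all windows, was found before 3 members: KLF5, KLF11 and KLF13. The cyclic AMP response element TGACGTCA, which reads the same on both strands and was present in 1.65% of all windows, occurred in 1 of the 2 windows of KLF11, and TATAAA, on either strand present in 10.7% of windows, in 1 window of KLF5. The share of G and C ran from 69.2% to 80.4% in 8 of the 10 windows, against a median of 58.0% over all windows, and a GC-rich window holds GC boxes more often. The window of KLF9, at 32.4%, and 1 of the 2 windows of KLF5, at 40.8%, were below that median. The matches are letters in a window and no binding was measured.

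Most of these genes were higher after toosendanin and none was lower by the test. In the authors' deposited table, 7 of the 10 genes passed an adjusted p of 0.05 upward and 0 downward, where 15.7% of the 16552 genes with an adjusted p were called higher and 15.7% lower (31.4% in either direction). At an unadjusted p under 0.05 the DESeq2 counts in the authors' deposited table were also 7 and 0. The median log2 fold change of the 10 genes in the authors' deposited table was 0.57, against -0.00023 over all genes tested. By known role, the authors' deposited table had 3 of the 4 activators higher, 3 of the 4 Sin3-binding factors higher, KLF15 higher and the CtBP-binding KLF3 not past the threshold. The 10 genes were not picked blindly, so the count describes them and supports no statement on the family. Over all 18 KLF genes listed, the authors' deposited table had an adjusted p for 13, of which the same 7 were higher and 0 lower.

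**Figure D1:**
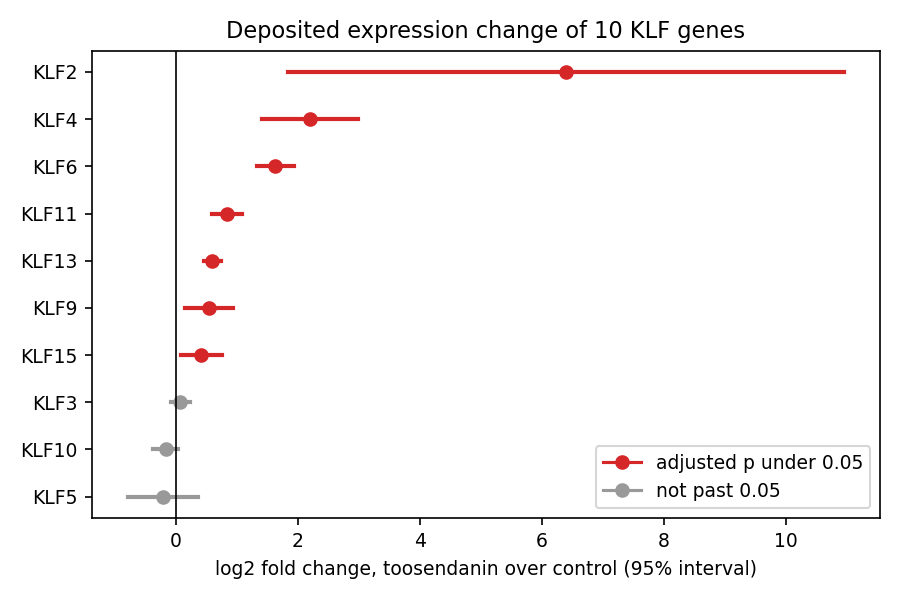
Log2 fold change in the authors' deposited table for each of the 10 KLF genes (horizontal axis, toosendanin over control), with points for the estimate and bars for the 95% interval from its standard error. The 7 genes past an adjusted p of 0.05 (red) run from KLF15 at 0.43 to KLF2 at 6.39, and the intervals of KLF3, KLF10 and KLF5 (grey) span 0.

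KLF6, an activator known as an early gene of liver injury, had the highest mean normalized count of the 10, at 2867 in the authors' deposited table. It rose by 1.63 ± 0.15 on the log2 scale in the authors' deposited table (± is the standard error for expression), which is 3.10-fold with a 95% interval from 2.52 to 3.82 (DESeq2 adjusted p = 1.42e-24). In the upper 50% of genes by mean normalized count, 0.652% had a larger log2 fold change than KLF6 in the authors' deposited table. Counting input reads over its 6 m6A regions gave 1816 in control and 4072 after toosendanin. That is a log2 change of 1.66 ± 0.04 (counting error) after centring on the median over genes, within the standard error of the deposited value.

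KLF4, an activator known for growth arrest and for reprogramming cells, rose by 2.20 ± 0.40 on the log2 scale in the authors' deposited table, or 4.61-fold with a 95% interval from 2.66 to 7.99 (DESeq2 adjusted p = 5.78e-07). Its mean normalized count in the authors' deposited table was 76.5, so few reads stood behind the value. The summed input of its 3 regions was 12 reads in control and 46 after toosendanin, a centred log2 change of 2.43 ± 0.47. The difference between KLF4 and KLF6 in log2 fold change was 0.57, with a 95% interval from -0.28 to 1.42, and did not exceed their errors.

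KLF2, an activator known for quiescence in endothelium and T cells, was barely counted, with a mean normalized count of 6.66 in the authors' deposited table. It passed the test there (DESeq2 adjusted p = 0.0221), with a fitted log2 fold change of 6.39 and a standard error of 2.33 in the authors' deposited table. The 95% interval ran from 1.84 to 10.95. At such a count the fitted size depends on very few reads, and no m6A region of KLF2 was listed that could be set beside it.

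KLF5, an activator known for growth of epithelia, did not follow the other activators. Its log2 fold change in the authors' deposited table was -0.20 ± 0.29 at a mean normalized count of 238.4 (DESeq2 adjusted p = 0.681), and the 95% interval from -0.78 to 0.37 excludes a rise as large as that of KLF6. Input reads over its 5 regions were 285 in control and 184 after toosendanin, a centred log2 change of -0.14 ± 0.14.

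Among the Sin3-binding factors KLF11, KLF13 and KLF9 rose and KLF10 did not pass. KLF11, a factor induced by TGF-beta, rose by 0.84 ± 0.13 on the log2 scale in the authors' deposited table, or 1.79-fold (DESeq2 adjusted p = 4.56e-10, mean normalized count 476.2). KLF13, known as an activator of the chemokine gene CCL5 in T cells, rose by 0.60 ± 0.07 in the authors' deposited table, or 1.52-fold (DESeq2 adjusted p = 2.89e-17, mean normalized count 1936). KLF13 thus had the more precise and KLF11 the larger estimate, and the interval of their difference, from -0.04 to 0.52, held 0. Summed input gave 260 and 318 reads for KLF11 in control and after toosendanin, a centred log2 change of 0.78 ± 0.12. For KLF13 it gave 734 and 835 reads, a centred log2 change of 0.68 ± 0.07.

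KLF9, a target of the glucocorticoid and thyroid hormone receptors, rose less surely, by 0.54 ± 0.20 on the log2 scale in the authors' deposited table (DESeq2 adjusted p = 0.0250, mean normalized count 309.1). Its summed input was 116 reads in control and 136 after toosendanin, a centred log2 change of 0.72 ± 0.18. KLF10, the TGF-beta-inducible early gene and the closest relative of KLF11, had a log2 fold change of -0.16 ± 0.11 in the authors' deposited table (DESeq2 adjusted p = 0.275, mean normalized count 715.3). The 95% interval for KLF10, from -0.36 to 0.05, lies below that for KLF11, which runs from 0.59 to 1.09. Input reads over the 3 regions of KLF10 were 593 and 403, a centred log2 change of -0.06 ± 0.09.

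KLF15, known in liver for amino acid breakdown and for the fasting response, rose by 0.43 ± 0.17 on the log2 scale in the authors' deposited table, or 1.34-fold (DESeq2 adjusted p = 0.0399, mean normalized count 419.6). Its summed input was 266 reads in control and 251 after toosendanin, a centred log2 change of 0.41 ± 0.13. KLF3, the CtBP-binding repressor, was among the well counted members at a mean normalized count of 2223 and stood at 0.08 ± 0.08 in the authors' deposited table (DESeq2 adjusted p = 0.507). Its 95% interval ran from 0.950-fold to 1.17-fold of control.

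In the order of log2 fold changes, KLF2, KLF4, KLF6, KLF11, KLF13, KLF9, KLF15, KLF3, KLF10 and KLF5, the 95% interval of the difference between neighbours excluded 0 for 1 of the 9 pairs. That pair was KLF6 and KLF11, which differed by 0.79 with an interval from 0.40 to 1.18. At an adjusted p of 0.01, 4 of the 7 genes were called in the authors' deposited table (KLF4, KLF6, KLF11 and KLF13), beside 23.8% of all genes tested. With a change of at least 2-fold 3 were called there (KLF2, KLF4 and KLF6), beside 7.29% of all genes tested in the authors' deposited table. Of the 5 members in the upper 50% of means KLF6, KLF11 and KLF13 were higher in the authors' deposited table, where 22.4% of such genes were higher and 45.4% changed in either direction. KLF2, KLF9 and KLF15 therefore rest on the wider threshold of 0.05. The labels do not say whether replicate libraries are separate cultures, so these p-values measure a spread between libraries that may be technical.

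**Figure D2:**
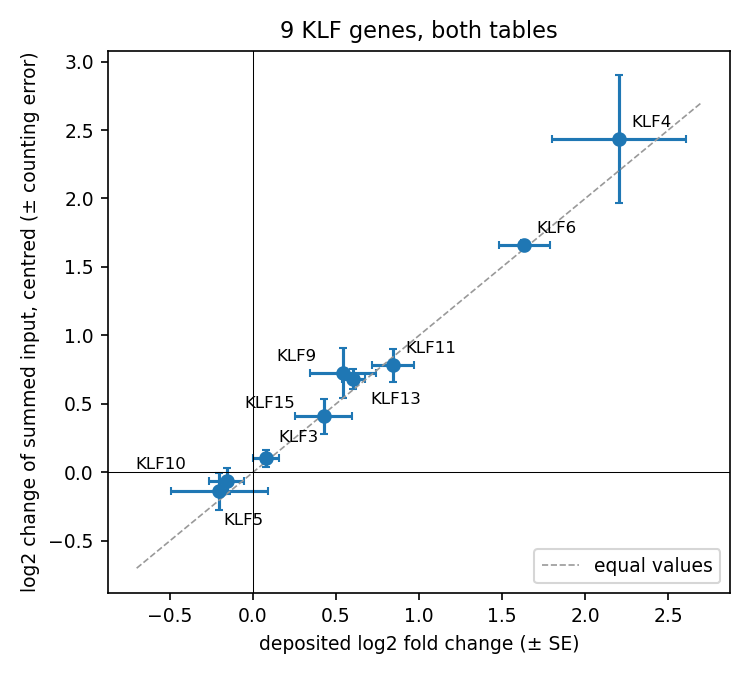
Deposited log2 fold change of expression (horizontal axis, ± SE) against the centred log2 change of input reads summed over m6A regions (vertical axis, ± counting error) for the 9 KLF genes with regions; the dashed line marks equal values. KLF4 and KLF6 stand at 2.43 and 1.66 on the vertical axis, KLF3, KLF5 and KLF10 lie within 0.14 of 0, and KLF2 has no region. The input libraries may have entered both tables, so the axes are not independent.

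Mean normalized counts of hepatocyte markers (ALB, AFP, APOA1, APOB, TTR, SERPINA1, HNF4A and FGB) ran from 5546 to 411979 in the authors' deposited table, with 4 of 8 higher and 1 lower after toosendanin. APOA1, ALB, HNF4A and FGB were the higher ones and AFP the lower. All 8 lie in the upper 50% of means, where 22.4% of genes were higher and 45.4% changed in either direction. Of 5 blood and immune markers PTPRC and CD3E were at 0 in the authors' deposited table, and of 4 fibroblast markers COL1A1, COL1A2 and DCN were at 0. The 3 endothelial markers had means up to 13.1, and PDGFRB, at 36.1, was the highest of the fibroblast markers in the authors' deposited table. PDGFRB was lower after toosendanin, at -2.25 on the log2 scale in the authors' deposited table (DESeq2 adjusted p = 0.0341). CD68, a lysosomal membrane protein best known from macrophages, stood at 1426 and was 1.41 higher on the log2 scale in the authors' deposited table. The part of PDGFRB and CD68 in the KLF results was not tested. In bulk RNA, a change in the share of cells that express a gene cannot be told apart from a change of RNA per cell.

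The m6A table held 35 regions for 9 of the 10 genes, from 3 regions for KLF3, KLF4, KLF9, KLF10 and KLF11 to 6 for KLF6. In the authors' deposited table, 15 of these regions had an FDR, and 6 passed 0.05: 4 of KLF6 and 1 of KLF13 lower after toosendanin and 1 of KLF3 higher. Among the 24688 regions with an FDR, 6.24% were called lower and 2.71% higher (8.95% in either direction). Without KLF6, 2 of 9 regions with an FDR were called, 1 in each direction. The median log2 fold change of IP over input in the authors' deposited table was -0.07 over the 35 regions and -0.06 over all regions. Errors and intervals for m6A hold counting error only.

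**Figure D3:**
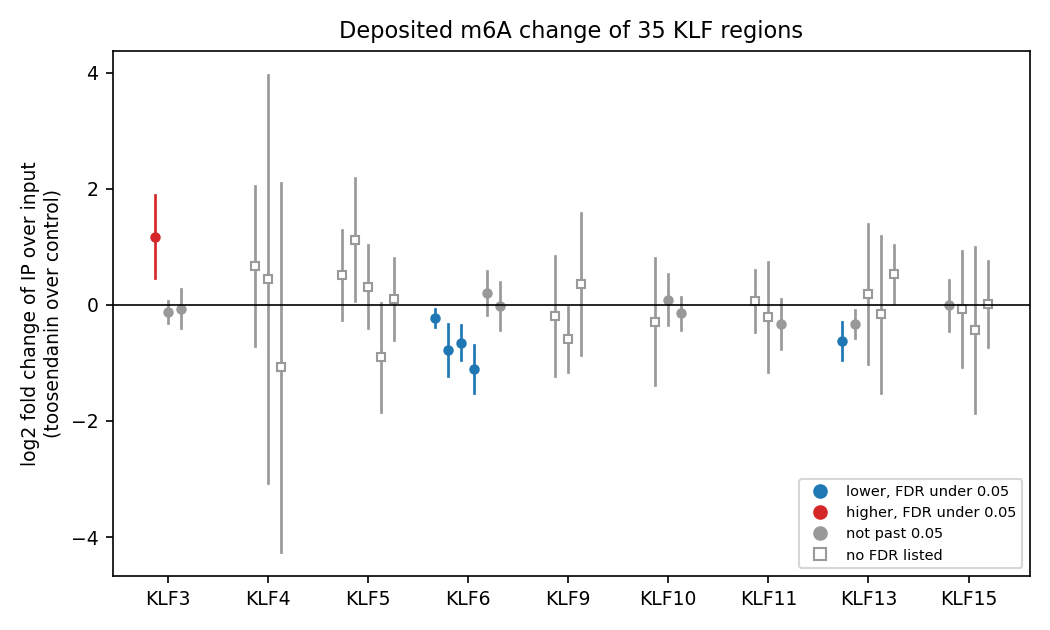
Deposited log2 fold change of IP over input (vertical axis, toosendanin over control) for each of the 35 KLF regions, grouped by gene. Genes are ordered by number, regions within a gene follow the order of the table, and bars are 95% intervals from counting error. Blue points mark the 5 regions called lower, in KLF6 and KLF13, the red point the KLF3 region called higher, grey points those not past 0.05 and open squares those with no FDR listed.

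KLF6 had the most called regions. Numbered in the order of the table, which gives no positions, region 4 had 170 IP and 137 input reads in control and 190 IP and 329 input reads after toosendanin. Its log2 fold change of IP over input fell by 1.11 ± 0.21 in the authors' deposited table (FDR = 9.54e-06). Input reads thus increased more than IP reads: scaled to the totals over all regions, the log2 change was 1.76 ± 0.15 for input and 0.70 ± 0.15 for IP.

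Regions 2 and 3 of KLF6 showed the same direction. Region 2 went from 105 IP and 130 input reads to 193 IP and 388 input reads, a log2 fold change of -0.77 ± 0.23 in the authors' deposited table (FDR = 0.0132). Region 3 went from 221 IP and 293 input reads to 383 IP and 763 input reads, a log2 fold change of -0.65 ± 0.16 in the authors' deposited table (FDR = 0.00121). In both the scaled IP change, 1.42 and 1.33, was positive but smaller than the scaled input change, 2.07 and 1.87. The deepest region, region 1, had 1162 IP and 967 input reads in control and 2078 IP and 1912 input reads after toosendanin, and fell by 0.22 ± 0.08 in the authors' deposited table (FDR = 0.0482).

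The other two regions of KLF6 did not pass. Region 5 had 156 IP and 148 input reads in control and 434 IP and 356 input reads after toosendanin, at 0.21 ± 0.20 in the authors' deposited table (FDR = 0.585). Region 6 had 129 IP and 141 input reads in control and 293 IP and 324 input reads after toosendanin, at -0.02 ± 0.21 in the authors' deposited table (FDR = 0.971). The 95% interval of region 4, from -1.53 to -0.70, overlaps neither that of region 5, from -0.18 to 0.59, nor that of region 6, from -0.44 to 0.39. The interval of region 6 overlaps those of regions 1, 2 and 3, and the interval of region 5 overlaps that of region 1. The scaled log2 change of input was positive in all 6 regions, from 1.69 to 2.07 in regions 2 to 6.

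Scaled to totals, the control log2 IP over input of KLF6 ran from -0.72 in region 3 to 0.001 in region 4, and after toosendanin from -1.27 in region 2 to 0.02 in region 5. Of the 4 regions called lower, regions 2 and 3 were below the average of all regions in control. Regions 1 and 4 were at it within counting error, at -0.05 ± 0.06 and 0.001 ± 0.17. Among the 5024 regions with an FDR in genes called higher in expression, 6.91% were called lower, as were 6.62% of the 453 regions of genes called at least 2-fold higher. Of the 2151 genes with at least 4 regions that had an FDR, 10 (0.465%) had at least 4 called lower, a count made after the values of KLF6 were seen. KLF6 reached 4 only with region 1, which passed narrowly (FDR = 0.0482) and was not called at an FDR of 0.01. With the test statistic divided by its robust spread over all regions, 1 KLF region remained called, region 4 of KLF6, beside 423 of 24680 regions in all (1.71%).

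**Figure D4:**
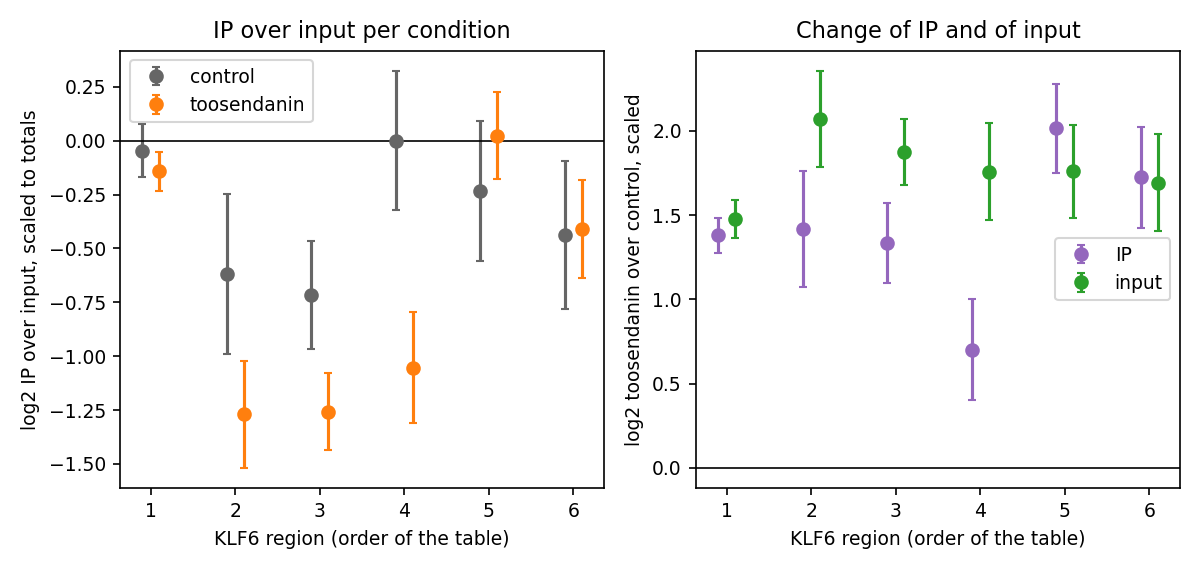
The 6 KLF6 regions in the order of the table. Left, log2 IP over input scaled to totals in control (grey) and after toosendanin (orange); right, scaled log2 change from control to toosendanin of IP (purple) and input (green); bars are 95% intervals from counting error. In region 4 the IP change of 0.70 lies below the input change of 1.76, while in regions 5 and 6 the intervals of IP and input overlap.

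KLF13 held the most strongly enriched regions with good depth. Region 1 had 500 IP and 175 input reads in control, a scaled enrichment of 2.30-fold, and 509 IP and 261 input reads after toosendanin, 1.63-fold. The log2 fold change of IP over input fell by 0.63 ± 0.17 in the authors' deposited table (FDR = 0.00456). Region 2, deeper and similarly enriched at 2.28-fold in control, had 955 IP and 338 input reads in control and 921 IP and 389 input reads after toosendanin. It stood at -0.33 ± 0.13 in the authors' deposited table and did not pass (FDR = 0.0774). Region 5 of KLF13, below the average in control at 0.412-fold, pointed the other way with 90 IP and 176 input reads in control and 119 IP and 153 input reads after toosendanin. It had a log2 fold change of 0.53 ± 0.26 and an unadjusted p of 0.0379 in the authors' deposited table, with no FDR.

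The single increase was in region 1 of KLF3, with 66 IP and 163 input reads in control and 46 IP and 48 input reads after toosendanin. Its log2 fold change of IP over input was 1.18 ± 0.36 in the authors' deposited table (FDR = 0.0201). Scaled to totals, the log2 change was 0.02 ± 0.28 for IP and -1.27 ± 0.24 for input, so the higher ratio came with fewer input reads. KLF3 overlaps an antisense gene, KLF3-AS1, whose single region had nearly the same reads: 64 IP and 134 input in control and 46 IP and 47 input after toosendanin. The RNA of KLF3-AS1 was listed at a log2 fold change of -1.69 ± 0.75 and a mean normalized count of 20.5 in the authors' deposited table (DESeq2 adjusted p = 0.0691). The kit keeps the strand, but the strand setting used in counting is not stated, so reads of KLF3 and KLF3-AS1 in this region cannot be told apart.

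The other regions of KLF3 carried most of its reads. Region 2 had 1240 IP and 856 input reads in control and 1011 IP and 740 input reads after toosendanin, at -0.13 ± 0.09 in the authors' deposited table (FDR = 0.460). Without region 1, the summed input of KLF3 was 1126 and 936 reads, a centred log2 change of 0.23 ± 0.06, against 0.10 ± 0.06 with it.

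In the remaining genes no region passed. The deepest region of KLF10, with 694 IP and 388 input reads in control and 439 IP and 261 input reads after toosendanin, stood at -0.14 ± 0.15 in the authors' deposited table (FDR = 0.618). That of KLF11, with 162 IP and 141 input reads in control and 184 IP and 195 input reads after toosendanin, stood at -0.33 ± 0.22 (FDR = 0.394 in the authors' deposited table). That of KLF15, with 182 IP and 166 input reads in control and 177 IP and 152 input reads after toosendanin, stood at -0.01 ± 0.22 (FDR = 0.990 in the authors' deposited table). These intervals leave room for changes as large as that in region 1 of KLF6.

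KLF4, KLF5 and KLF9 had no region with an FDR. KLF4 had 24 IP reads over its 3 regions in control and 115 after toosendanin, beside 12 and 46 input reads, so IP and input were both higher. The deepest region of KLF4 stood at 0.67 ± 0.71 in the authors' deposited table, too few reads to show a change of the ratio. The 5 regions of KLF5 ran from -0.90 ± 0.48 to 1.12 ± 0.54 in the authors' deposited table. The deepest region of KLF9, with 150 IP and 69 input reads in control and 141 IP and 94 input reads after toosendanin, stood at -0.60 ± 0.28 (unadjusted p of 0.0364 in the authors' deposited table).

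SP factors bind the same GC boxes as KLF proteins, and of 7 SP genes with an adjusted p, 0 were higher and 2 lower in the authors' deposited table. Over all genes tested 15.7% were higher and 15.7% lower, so a count of 0 or 2 among 7 genes is near that background. SP5, a Wnt target, stood at -0.69 ± 0.08 (DESeq2 adjusted p = 7.03e-15) and SP3 at -0.48 ± 0.07 (adjusted p = 6.19e-11) in the authors' deposited table, while SP1 was at 0.15 ± 0.13 and missed the threshold. Of the 8 other KLF genes, KLF1 and KLF18 had a mean of 0 and KLF8, KLF14 and KLF17 had no adjusted p. In the authors' deposited table, KLF12, a CtBP-binding repressor, KLF16 and the barely counted KLF7 missed the threshold, at 0.11 ± 0.17, 0.03 ± 0.18 and 3.49 ± 1.59. KLF7 alone of these had an unadjusted DESeq2 p under 0.05, at 0.0279 in the authors' deposited table.

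Of 18 cofactors and ubiquitin ligases that act with KLF proteins, the authors' deposited table had 2 that rose and 5 that fell, with a median log2 fold change of -0.09. The histone deacetylase HDAC2 stood at -0.56 ± 0.09 and SIN3B, a scaffold of the Sin3 complex, at -0.35 ± 0.10 in the authors' deposited table. The ubiquitin ligases FBXW7 and WWP1, both known to mark KLF proteins for degradation, were listed at -0.45 ± 0.13 and -0.21 ± 0.05 by the authors' deposited table. The share called, 38.9%, is near the 31.4% of all genes tested.

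Pathways known to act on KLF genes gave mixed counts. Of 9 tested genes of the MEK5-ERK5-MEF2 cascade, which induces KLF2 and KLF4 in endothelium, the authors' deposited table had 1 that rose, the transcription factor MEF2D at 0.67 ± 0.20, and 0 that fell. In the authors' deposited table, 3 of 14 TGF-beta genes rose and 3 fell. The ligand TGFB1 stood at 0.55 ± 0.09 and BHLHE40 at 0.70 ± 0.19, against the receptor TGFBR2 at -0.75 ± 0.10 in the authors' deposited table. In the authors' deposited table, 2 of 11 glucocorticoid-responsive genes rose and 2 fell, with the gluconeogenic enzyme PCK1 at 2.46 ± 0.15 and the kinase SGK1 at -1.90 ± 0.25. The share called was 36.4% for the glucocorticoid list, 42.9% for the TGF-beta list and 11.1% for the MEK5-ERK5-MEF2 list, beside 31.4% of all genes tested.

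Among 16 clock factors, which share daily cycles with KLF9, KLF10 and KLF15 in liver, the authors' deposited table had 7 that rose and 0 that fell (43.8% called, median 0.14). Beside this, 15.7% of all genes tested were higher and 15.7% lower. In the upper 50% of means, which holds CLOCK and NPAS2 but not BHLHE41, 22.4% of genes were higher and 45.4% changed in either direction. CLOCK stood at 0.81 ± 0.11, its relative NPAS2 at 0.35 ± 0.09 and the repressor BHLHE41 at 2.31 ± 0.60 in the authors' deposited table. Of 11 tested amino acid enzymes, several of them known targets of KLF15, the authors' deposited table had 4 that rose and 3 that fell, with a median of 0.04 and 63.6% called, beside 31.4% of all genes tested. The tyrosine-degrading enzyme HPD stood at 0.68 ± 0.06 and the histidine ammonia-lyase HAL at 1.11 ± 0.14 in the authors' deposited table. The 3 that fell, named after their values were seen, were the transaminases BCAT2 at -0.77 ± 0.27 and GPT2 at -0.32 ± 0.12 and the branched-chain keto acid dehydrogenase subunit BCKDHA at -0.33 ± 0.13 in the authors' deposited table. PRODH, which KLF15 is known to induce, was listed at a mean of 0.

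Of 12 tested growth arrest and immediate early genes, the authors' deposited table had 5 that rose and 1 that fell (median 0.34), so 6 of 12 were called, beside 31.4% of all genes tested. The early genes EGR1 at 2.62 ± 0.13, FOS at 2.43 ± 0.23, JUN at 1.44 ± 0.13 and ATF3 at 1.41 ± 0.15 were the 4 with the smallest adjusted p in the authors' deposited table. ATF3 and JUN lie within the 95% interval of KLF6, from 1.33 to 1.93. The wider interval of KLF4, at a standard error of 0.40, holds EGR1, FOS and JUN, and also the estimate of KLF6. Likeness between these early genes and the KLF genes was not tested. The counts of 0 given for SP, MEK5-ERK5-MEF2 and clock genes were also 0 at an unadjusted DESeq2 p under 0.05 in the authors' deposited table. The lists hold few genes, overlap in BHLHE40, PER1 and TAT, and were read against the share called over all genes without a test of their own.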

How the data were processed

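RNA of HepG2 cells was sequenced in 12 libraries, made with a stranded mRNA kit with unique molecular identifiers per the labels' protocols. The submitters' processing notes name HISAT2, StringTie and DESeq; neither versions, genome build, counting settings nor the m6A caller are stated. The authors deposited an expression table with, per the file headers, a mean normalized count (a signal value), a log2 fold change and standard error, the Wald score, a p-value and the adjusted p of DESeq2 for 28265 genes. The deposited m6A table holds whole-number read counts of 46178 regions summed over libraries, a log2 fold change, a p-value and an FDR. In control, IP counts totalled 42316089 and input counts 34131862; after toosendanin they totalled 29094328 and 24253006.

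Calls used the deposited adjusted p or FDR under 0.05. In 99.5% of 45783 regions the deposited m6A p-value implied a standard error that matched the 4 sums' Poisson error to 5%, so it carries counting error alone. Input reads were summed per gene over regions naming 1 gene and centred by -0.49 on the log2 scale, the median over genes with at least 100 reads; across 7888 well counted genes this change and the deposited one had a Pearson r of 0.94, so positive means higher after toosendanin. Promoter windows came from RefSeq, GRCh38.p14. The recomputed m6A test was tested on simulated data drawn with counting error alone, so the simulation cannot show how it behaves with spread between libraries. The 10 members, 8 gene lists and rules were chosen with earlier results of these data known: all members were named, with their called and deepest regions, and up to 4 genes per list by adjusted p, of which some are not reported here. Stricter thresholds, other adjustments, other scalings and a widened statistic were tried. Scripts ran in Python 3.11.15 with scipy 1.17.1, pandas 2.3.3 and numpy 2.4.6.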

Additional observations from a re-analysis of the deposited data

How the results depend on the processing

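Of the 7 KLF genes called in expression, 4 remained at an adjusted p of 0.01, 3 with a limit of 2-fold and 3 when the adjustment ran over the upper 50% of means, which holds 5 of the 10 genes. With a new adjustment over all p-values 7 were called, and leaving out KLF2, added after the data were seen, gave 6. Of the 6 KLF regions called for m6A, 3 were called at an FDR of 0.01 (1229 of 24688 regions in all, 4.98%). Among regions with at least 2-fold control enrichment, which hold 2 of the 15 regions with an FDR, 2 were called (267 of 1510, 17.7%). These were regions 1 and 2 of KLF13, and region 2 was not among the 6 (FDR = 0.0774 in the authors' deposited table). That limit uses the control ratio, which is 1 side of the change tested, and so favours lower calls. With the statistic divided by its robust spread 1 was called (423 of 24680, 1.71%). At the deposited FDR under 0.05, 2 were called without KLF6, a setting added after the data were seen. Adjusting over regions with at least 10 reads in each sum gave 5 (2012 of 41670 in all, 4.83%). Centring on the median over regions gave 5 (2038 of 24680, 8.26%), and scaling to total counts gave 5 (2382 of 24680, 9.65%). Region 1 of KLF6 was the call lost in each of these settings. Regions carrying 1 gene gave 6 (2146 of 24172, 8.88%). Summed input kept the sign of the log2 fold change in the 9 genes with m6A regions, centring kept it in all 10 genes, and adding 0.5 to each sum kept it in all 35 regions. No paired analysis was possible because the tables hold no values per library, and leaving out each replicate in turn was not run for the same reason.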
